A study of Mus musculus with 6 samples.

Results

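Adenosine is made outside cells by a chain of surface enzymes, taken up or broken down by a second set of proteins, and sensed by G protein-coupled receptors. The 10 genes described here were chosen as that chain: the ecto-nucleotidases Entpd1, Entpd2, Enpp1 and Nt5e, the nucleoside transporter Slc29a1, the removing enzymes Adk and Ada, and the receptors Adora1, Adora2a and Adora2b. A gene counted as measured where a probe set of the array (a group of short probes designed against a transcript) was annotated to its symbol alone. That held for 6 of the 10, of 18193 genes with such a probe set in all. No probe set in the tables used here was annotated to Adora1, Adora2a, Adora2b or Enpp1 alone, so these 4 were not analysed here. Where a gene had several probe sets, the main one was that with the highest mean over all 6 arrays, a choice that did not use the genotype. Nt5e was already known from these data as a strongly raised gene when the 10 were chosen. Its difference is therefore a description of these hearts, and its adjusted p gives its place among all genes and is no independent test.

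Whole mouse hearts at embryonic day 16.5 were compared between 3 FOG-2 R3K5A samples and 3 wild-type (WT) siblings, 1 Affymetrix array each. The embryos came from heterozygous crosses, and their mixed background was C57/B6 with 129 S6. FOG-2, encoded by Zfpm2, is a partner protein of GATA transcription factors, and the substitutions of the R3K5A allele are known to abolish its contact with NuRD, a complex that remodels chromatin. The allele is in the germline and so not limited to one cell type of the heart. The labels give neither the zygosity of the mutants nor whether a sample was 1 heart or several. The spread behind the limma p-values is therefore that between samples of a genotype, be they single hearts or pools. Values are the deposited linear intensities or their log2, and differences are FOG-2 R3K5A minus WT in log2 units.

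ATP and ADP that leave cells are cut to AMP by Entpd1 (CD39), while Entpd2 mainly turns ATP into ADP. Nt5e (CD73) then cuts AMP to adenosine, and Slc29a1 (ENT1) lets adenosine cross the membrane in either direction. Inside, Adk phosphorylates adenosine back to AMP and Ada deaminates it to inosine. In the heart adenosine is known for slowing the pacemaker and conduction through the A1 receptor and for widening coronary vessels through A2 receptors.

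Because FOG-2 acts through GATA factors, the RefSeq sequence before the start sites (build GRCm38.p6) was searched for GATA sites, on both strands. It is shown for Nt5e, the gene with the largest difference, and for the 2 listed starts of Adk, whose probe sets differed among themselves. Capitals mark GC boxes (GGGCGG) and CCAAT boxes (CCAAT), read on either strand, and overlapping matches run together. The windows are the 250 bases before each start, at chr9:88327359-88327608 for Nt5e and at chr14:21052324-21052573 and chr14:21075902-21076151 for Adk, all on the plus strand.
Nt5e: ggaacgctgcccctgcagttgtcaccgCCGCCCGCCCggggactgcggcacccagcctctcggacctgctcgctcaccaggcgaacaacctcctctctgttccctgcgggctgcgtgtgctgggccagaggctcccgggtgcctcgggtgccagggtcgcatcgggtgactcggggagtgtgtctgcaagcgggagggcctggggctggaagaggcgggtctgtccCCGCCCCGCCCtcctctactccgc
Adk, first start: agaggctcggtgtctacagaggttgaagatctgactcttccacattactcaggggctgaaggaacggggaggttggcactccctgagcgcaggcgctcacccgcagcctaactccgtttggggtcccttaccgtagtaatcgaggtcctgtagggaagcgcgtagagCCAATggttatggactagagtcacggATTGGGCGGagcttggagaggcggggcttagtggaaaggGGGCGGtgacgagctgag
Adk, second start: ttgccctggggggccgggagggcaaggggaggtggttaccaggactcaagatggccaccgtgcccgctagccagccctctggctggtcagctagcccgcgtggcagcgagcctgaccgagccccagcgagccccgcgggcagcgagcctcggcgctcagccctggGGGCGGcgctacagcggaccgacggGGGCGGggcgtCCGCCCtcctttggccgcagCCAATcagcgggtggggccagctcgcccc
A GATA site was taken as the letters GATA with an A or T before them and an A or G after them, on either strand, and 0 were found in these 3 windows. Such letters occur in 26.5% of 32851 windows of the same length before RefSeq starts. The Nt5e window held 4 GC boxes in 2 overlapping pairs, a motif found in 32.7% of all windows, and 72% of its bases were G or C, against a median of 52.4%. Among the other windows of the 6 measured genes, Entpd2 had 1 GATA site and Slc29a1 had 1, in 1 of its 8 listed starts. A match is a run of letters and says nothing about binding, and a missing match says only that the letters are not in these 250 bases.

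Nt5e transcript was 3.22-fold higher in FOG-2 R3K5A hearts. Its main probe set read 781, 687 and 779 intensity units in FOG-2 R3K5A replicates 1, 2 and 3, against 213, 257 and 229 in WT replicates 1, 2 and 3. The lowest mutant array lay far above the highest WT array, and each genotype was tight. On the log2 scale the means were 9.55 ± 0.11 in FOG-2 R3K5A and 7.86 ± 0.14 in WT (SD, n = 3 each), a difference of 1.69 (SE 0.10, 95% interval 1.45 to 1.92). In limma's fit over 11113 genes this difference had rank 4 among the rises and had an adjusted p of 0.000268 (Benjamini-Hochberg). Over all tested genes, 1.76% were called at an adjusted p under 0.05. Both genotypes were above 78.9 intensity units, the level under which genes were left out of the test. The call held in the 14 alternatives fixed with the design, while with the mean over the 3 Nt5e probe sets the difference was 0.80 (limma adjusted p = 0.00954).

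**Figure D1:**
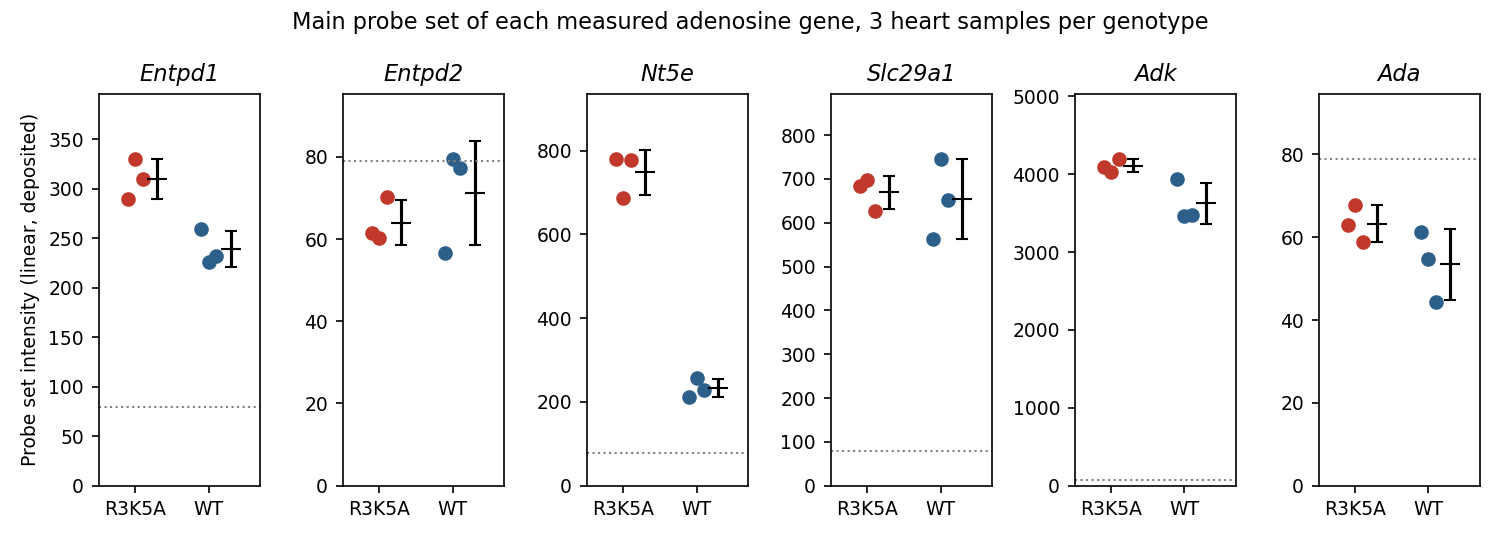
Deposited intensity (linear axis from 0) of the main probe set of each measured gene, in order of the pathway, with 1 point per array, FOG-2 R3K5A in red and WT in blue, and black marks for the mean and SD of 3. The dotted line is the level of 78.9 under which genes were not tested, and only Nt5e shows a wide gap between genotypes, 687 to 781 against 213 to 257.

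Nt5e has 3 probe sets on this array, and they did not read the same change. The second read 155, 158 and 157 intensity units in FOG-2 R3K5A hearts, against 95.5, 94.7 and 104 in WT. These groups again did not overlap, and the difference was 0.68 (SE 0.11, 1.60-fold). Its adjusted p over 22518 probe sets was 0.0314 by limma, 0.0200 to 0.205 over its alternatives, and the call ended without any single array other than WT replicate 1. The third read 34.7, 48.4 and 39.6 in FOG-2 R3K5A hearts and 40.0, 36.0 and 42.4 in WT. It lay under the test level on all 6 arrays and its groups overlapped, so it carries no call. Within each array, the main probe set exceeded the second by 2.33, 2.12 and 2.31 log2 units in mutants and by 1.15, 1.44 and 1.14 in WT. The shift between the probe sets therefore differed by 1.01 log2 units between genotypes, with an exact two-sided permutation p of 0.1, the smallest that 3 against 3 samples allow. The stretches of transcript that the probe sets read were not used here.

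Of the enzymes upstream of Nt5e, Entpd1 had the same direction on each of its 3 probe sets. The main one read 289, 330 and 310 intensity units in FOG-2 R3K5A hearts, against 260, 226 and 232 in WT. The genotypes did not overlap, but the gap between the nearest arrays was narrow. The log2 difference was 0.37 (SE 0.10, 95% interval 0.14 to 0.61) and did not pass over all genes (limma adjusted p = 0.134; 0.0619 to 0.421 in the alternatives fixed with the design). The other 2 probe sets gave 0.33 and 0.26, and neither passed (limma adjusted p over all probe sets 0.221 and 0.344). Their genotypes did not overlap either, which holds with mutants higher for 9.8% of all probe sets tested. For the one at 0.26 the nearest arrays almost touched, at 243 in FOG-2 R3K5A and 242 in WT. Probe sets of a gene read the same RNA samples, so their shared direction is not a repeat of the result. Entpd2 read 61.5, 60.3 and 70.3 in FOG-2 R3K5A hearts and 56.7, 79.5 and 77.3 in WT. It had a mean under the test level and overlapping genotypes, with a difference of -0.14.

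Slc29a1, the transporter, read 684, 698 and 627 intensity units in FOG-2 R3K5A hearts, against 563, 746 and 652 in WT. The mutant arrays lay inside the WT range. The difference was 0.04 with a 95% interval of -0.21 to 0.29 (limma adjusted p = 0.887), so changes beyond that interval were not seen and smaller ones could not be detected with 3 arrays a genotype.

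Adk, the kinase that returns adenosine to AMP, was read by 6 probe sets. The main probe set, whose suffix x marks probes that can also match other transcripts, read 4097, 4028 and 4196 intensity units in FOG-2 R3K5A hearts, against 3934, 3466 and 3471 in WT. WT replicate 1 lay next to the mutants and the genotypes did not overlap. The difference was 0.18 (SE 0.06) and did not pass over all genes (limma adjusted p = 0.199). Without WT replicate 1 it was 0.24 and passed (adjusted p = 0.0384). The next brightest Adk probe set read 2231, 2155 and 1991 in FOG-2 R3K5A hearts, against 1901, 1751 and 1722 in WT, a difference of 0.25 (SE 0.07) that did not pass either (adjusted p over all probe sets 0.175).

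Another, dimmer Adk probe set moved more. It read 266, 189 and 233 intensity units in FOG-2 R3K5A hearts, against 104, 121 and 127 in WT, with every mutant array above every WT array. Its difference of 0.96 (SE 0.15, 1.94-fold) had a limma adjusted p of 0.0263 over all probe sets, and the call ended when FOG-2 R3K5A replicate 1 or 3 or WT replicate 2 or 3 was left out (0.0151 to 0.158 over its alternatives). Set against the brightest Adk probe set on the same array, it shifted by 0.78 log2 units more in mutants (exact two-sided permutation p = 0.1, the smallest possible, in a comparison chosen after its values were seen). The other 3 Adk probe sets lay under the test level, with differences of 0.06 to 0.56. Of these, the one at 0.56 had genotypes that did not overlap. All 6 Adk probe sets had positive differences, of 0.06 to 0.96. Of all probe sets tested 44.5% were positive, a share that does not cover the 3 Adk probe sets under the test level. The 6 read the same RNA samples, so their shared direction is not a repeat of the result.

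Ada, the deaminase, read 63.0, 67.9 and 59.0 intensity units in FOG-2 R3K5A hearts and 61.2, 54.7 and 44.4 in WT. Both genotypes were under the test level and overlapped, and the difference was 0.25. Ada and Entpd2 were the 2 measured genes left out of the test, with the second Nt5e probe set the nearest above the level and Entpd2 the nearest main probe set below it. With no filter on low values, neither passed (limma adjusted p = 0.598 for Ada and 0.794 for Entpd2).

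**Figure D2:**
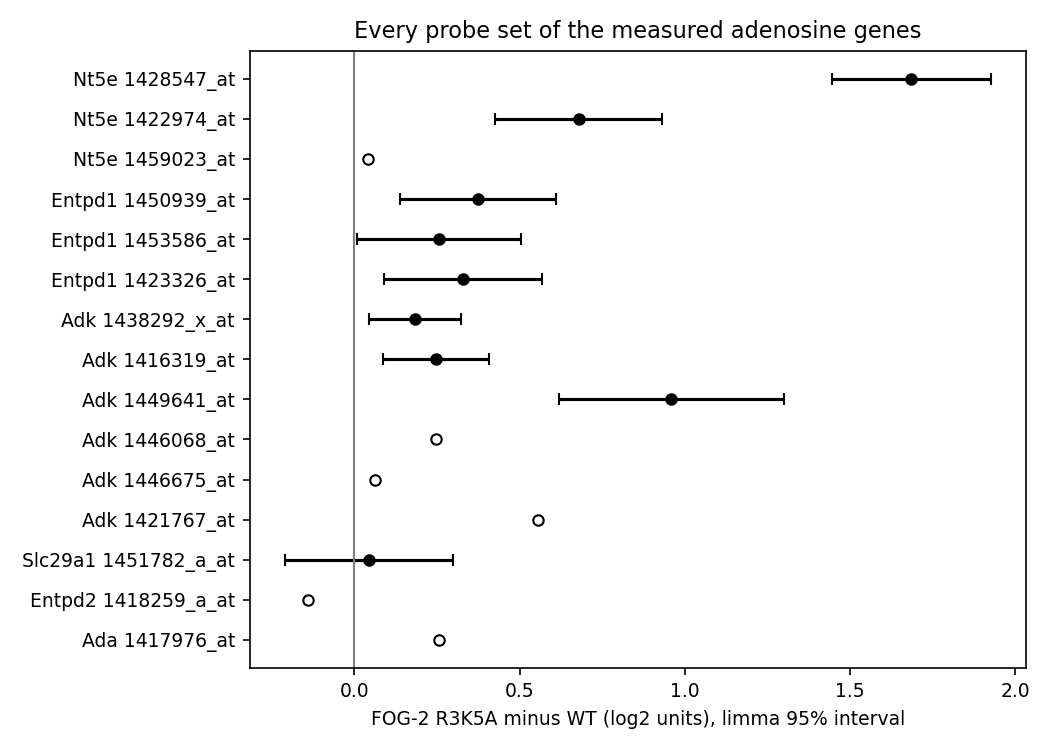
Difference between FOG-2 R3K5A and WT in log2 units for all 15 probe sets of the 6 measured genes, with limma's 95% interval for the 9 above the test level and open points without interval for those below it. The 3 probe sets called are the main and second of Nt5e, at 1.69 and 0.68, and 1 dimmer probe set of Adk, at 0.96.

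In the gene-level test, then, 1 of 4 tested genes was called higher and 0 lower, where 1.39% of all tested genes were called higher and 0.369% lower. The genotypes did not overlap, with mutants higher, for 3 of the 4 (Nt5e, Entpd1 and Adk), beside 11.5% of all tested genes. Among the 9 probe sets above the level 3 were called, all higher, beside 0.773% of all probe sets. These counts hold genes picked with their changes in view, and several probe sets of the same gene. Without FOG-2 R3K5A replicates 1 and 3, a setting chosen after seeing the data, the Nt5e difference was 1.56 (adjusted p = 0.0575), with 5 genes called in all at this size.

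The other purine genes, a list of 75 around the chain, showed no such rise. Of these 41 were tested, 27 lay under the test level and 7 had no probe set of their own. By limma over all genes 0 of the 41 were called, beside 1.76% of all tested genes, and 10 had an unadjusted p under 0.05, beside 14.7% of all tested genes. Their median difference was -0.05 against -0.01 over all tested genes, and 14 of 41 were positive, beside 47.2% of all tested genes. The enzymes of nucleotides inside the cell lay mostly below 0, with a median of -0.17 over 12 genes. In that group Ampd3, an AMP deaminase that turns AMP into IMP, had the lowest difference of the 41 tested. It read 7.86, 7.49 and 7.74 log2 units in FOG-2 R3K5A hearts and 8.17, 8.29 and 8.63 in WT. The genotypes did not overlap, and 9.76% of all tested genes were lower in mutants in this way. The difference of -0.67 (SE 0.15) did not pass (limma adjusted p = 0.0614). It passed without WT replicate 1 (-0.76, adjusted p = 0.0349). Nt5c3, a nucleotidase of the cytosol, had -0.33 (adjusted p = 0.0707), also without overlap.

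Among genes of adenosine removal and purine salvage, Dpp4 (CD26) had the largest difference. In humans its product binds Ada at the cell surface. The Dpp4 probe set has the suffix x, like the main one of Adk, so its probes can also match other transcripts. It read 8.82, 8.73 and 9.02 log2 units in FOG-2 R3K5A hearts and 8.58, 8.07 and 8.45 in WT, without overlap, a difference of 0.49 (SE 0.14, limma adjusted p = 0.143). Pnp, which cuts inosine to hypoxanthine, had 0.27 (adjusted p = 0.317). Of the other transporters, Slc29a2 had -0.19 and Slc29a3 -0.07, and neither passed. Panx1, a channel through which ATP leaves cells, had 0.13 with overlapping genotypes.

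On the receptor side, Adora3 was the only adenosine receptor with a probe set of its own in the tables used here, under the test level in both genotypes at 5.26 ± 0.07 log2 units in FOG-2 R3K5A hearts and 5.31 ± 0.30 in WT. Of 14 P2 receptors, which sense ATP and other nucleotides, 12 lay under the test level, while P2rx4 had 0.01 and P2rx2 -0.09. Of 12 tested G proteins and adenylyl cyclases, which relay receptor signals to cyclic AMP, 0 were called by limma, beside 1.76% of all tested genes, and 3 had an unadjusted p under 0.05, beside 14.7%. Adcy7 had 0.48 (adjusted p = 0.169) and Adcy5, a main cyclase of heart muscle, -0.31 (adjusted p = 0.237), both by limma and both without overlap of the genotypes. Extracellular breakdown beyond the chosen genes was read by Enpp3 alone, at -0.04.

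**Figure D3:**
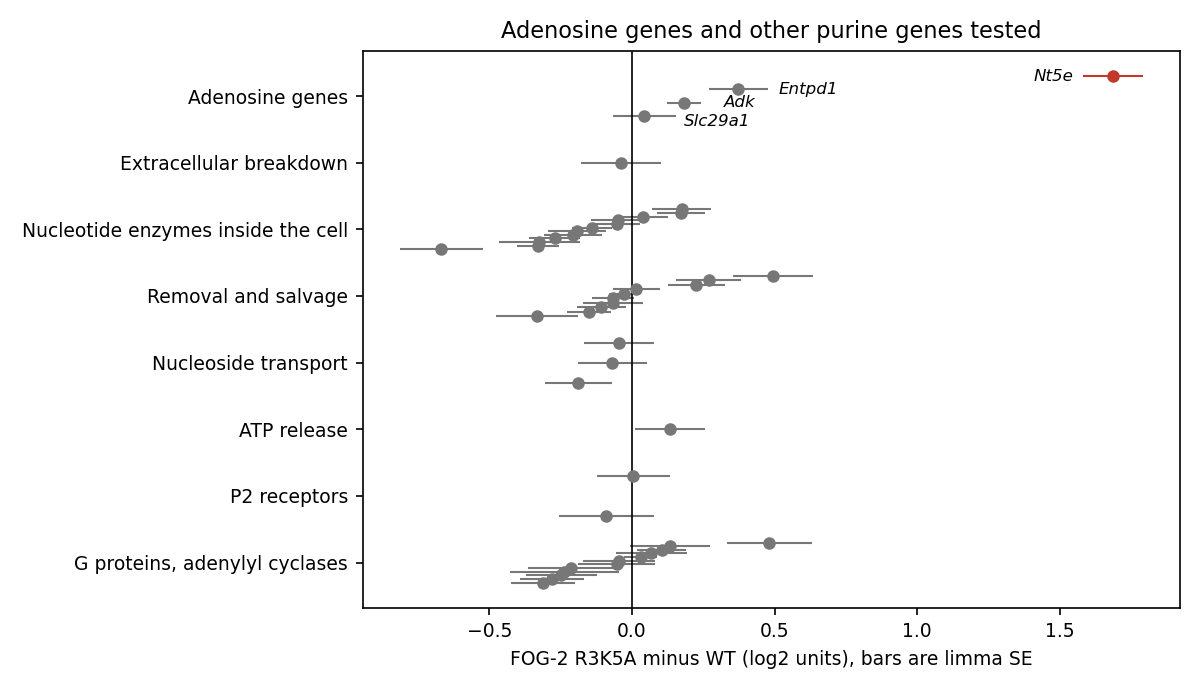
Difference between FOG-2 R3K5A and WT in log2 units, with limma's SE, for the 4 tested adenosine genes and the 41 other purine genes tested, by role. The called gene, Nt5e, is red and stands alone at 1.69, while the other purine genes run from -0.67 to 0.49.

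The genes whose profile over the 6 arrays was most like that of Nt5e were found by the Euclidean distance between log2 profiles after each gene's mean was taken off. The nearest were Krt8 (distance 0.34), Plppr5 (0.39), Krt18 (0.53), Lacc1 (0.58) and Gbp6 (0.62), where the Nt5e profile lies 2.08 from a flat one. Krt8 and Krt18 are the paired keratins of simple epithelia. Krt8 read 8.80, 8.55 and 8.75 log2 units in FOG-2 R3K5A hearts and 7.15, 7.48 and 7.23 in WT. A distance over 6 arrays in 2 genotypes mostly reflects a genotype difference of like size.

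In whole hearts, a change in the number of cells of a type and a change in RNA per cell cannot be told apart. Cell type markers were therefore read on the same arrays. Of 15 epicardial and mesothelial markers, genes of the heart's outer cell layer, 7 were called higher and 0 lower by limma. Of all tested genes, 1.39% were called higher and 0.369% lower. The list was chosen with earlier results of these data known, so its counts are a description and no independent test. The median difference of the 15 was 0.50, against -0.01 over all tested genes. Krt18 rose by 1.54, Krt8 by 1.42 and Krt19 by 0.93. Of the transcription factors in the list, Wt1, Tbx18 and Tcf21 had -0.06, -0.11 and -0.09 and Bnc1 had 0.36, and none of these 4 was called. Differences were positive for 11 of the 15, beside 47.2% of all tested genes. The lowest was that of Aldh1a2, at -0.22 with overlapping genotypes (limma adjusted p = 0.284). Krt8 and Krt18 are thus in this list and among the profiles nearest to Nt5e. All 15 were above the test level (6.30 log2 units) in their mean over the 6 arrays, but not on every array. Muc16, 1 of the 7 called, read 7.13, 6.48 and 6.72 log2 units in FOG-2 R3K5A hearts. In WT it read 5.81, 5.82 and 5.93, under the level, so its call rests on a comparison with dim WT values. Dmkn, which was not called, lay under the level on WT replicates 1 and 2, at 4.54 and 6.13. The summed intensity of the 15 ran from 9929 to 10906 in FOG-2 R3K5A hearts and from 7971 to 8414 in WT, without overlap. On the log2 scale the mutant sums lay 0.28 to 0.42 above the WT mean sum, where Nt5e lay 1.56 to 1.74 above its own. A sum of linear intensities is set mostly by its brightest members, here Tcf21 and Tbx18, which did not rise. The differences of single markers in the list ran from -0.22 to 1.65, so the sum does not give the size of change of each. The part of epicardial transcripts in the rise of Nt5e was not tested.

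Of 9 fibroblast and mesenchyme markers 1 was called higher by limma, Vcan by 0.50, beside 1.39% of all tested genes. In 4 of the 9 the unadjusted limma p was under 0.05, beside 14.7% of all tested genes. The same 4 had genotypes that did not overlap, with mutants higher, beside 11.5% of all tested genes. The list had summed intensities of 35171 to 37577 in FOG-2 R3K5A hearts and 31995 to 34509 in WT. Of 9 endothelial markers 1 was called higher by limma, Vwf by 0.92, beside 1.39% of all tested genes. In 2 of the 9 the unadjusted limma p was under 0.05, beside 14.7%. The genotypes did not overlap for 3 with mutants higher and 1 with mutants lower, beside 11.5% and 9.76% of all tested genes. The list had sums of 10697 to 11214 in FOG-2 R3K5A hearts and 9937 to 10579 in WT. The 7 cardiomyocyte markers held 0 calls, beside 1.76% of all tested genes, with sums of 63476 to 64378 in FOG-2 R3K5A hearts and 59932 to 61787 in WT, and were bright on every array. For these 3 lists the ranges of the sums did not overlap, with mutants higher, and the part of these cells in the result was not tested. The cardiomyocyte marker with the smallest p was Myl7, an atrial myosin light chain, with a difference of 0.14 (limma adjusted p = 0.160). An unadjusted limma p under 0.05 was found for 2 of the 7, beside 14.7% of all tested genes. Smooth muscle, macrophage, erythroid, neural and thymus lists also held 0 calls by limma, beside the same 1.76%. The unadjusted limma p was under 0.05 for 1 of 5 tested macrophage markers and for the 1 tested thymus marker, beside 14.7% of all tested genes. In these lists the tested members with the smallest p were Rgs5 (-0.36), Fcgr3 (0.60), Alas2 (0.27), Sox10 (-0.08) and Cd8a (-0.34). The thymus, where Ada is abundant, was read by 1 marker above the test level, with the other 4 under it. That marker, Cd8a, was read by a probe set with the suffix x.

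Scgb3a2, a secreted protein of airways, was high on 2 of the mutant arrays. It read 9.03, 4.87 and 11.36 log2 units in FOG-2 R3K5A replicates 1, 2 and 3 and 4.83, 4.81 and 5.40 in WT. Sftpc, a surfactant protein, read 6.17, 5.80 and 9.43 in FOG-2 R3K5A and up to 6.53 in WT, and so was high on replicate 3 alone. Of 6 lung markers 3 were tested and 0 were called by limma, beside 1.76% of all tested genes. Of these 3, 1 (Scgb3a2) had an unadjusted limma p under 0.05, beside 14.7%. Nkx2-1, Sftpa1 and Scgb1a1 were under the test level. The summed list ran from 176 to 3457 in FOG-2 R3K5A hearts and from 173 to 285 in WT. The main Nt5e probe set read 781, 687 and 779 in FOG-2 R3K5A replicates 1, 2 and 3, against at most 257 in WT. Its lowest mutant value was thus on replicate 2, where Scgb3a2 was within the WT range. The part of lung transcripts in the result was not tested.

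**Figure D4:**
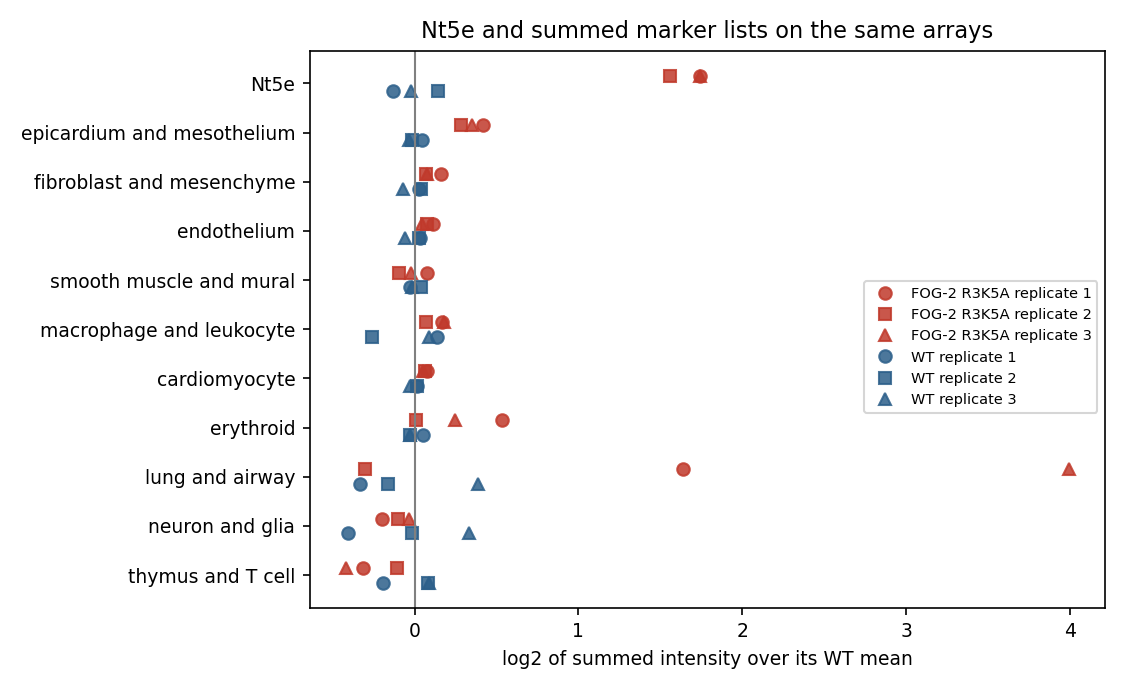
Intensity of the main Nt5e probe set and summed intensity of each marker list on every array, as log2 of the value over its WT mean, with FOG-2 R3K5A in red above WT in blue and a symbol for each replicate number. Nt5e lies at 1.56 to 1.74 in the 3 mutants, the epicardial sum at 0.28 to 0.42, and the lung sum is high on FOG-2 R3K5A replicates 1 and 3 only. Each sum is set mostly by the brightest members of its list.

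Array medians ran from 77.4 to 84.1 intensity units. Correlations over the tested genes were 0.990 to 0.995 within FOG-2 R3K5A, 0.982 to 0.986 within WT and 0.972 to 0.990 between genotypes, and WT replicate 1 lay nearest to the mutants on the first principal component. Without that array the Nt5e difference was 1.62 (limma adjusted p = 0.000788), and 451 genes were called against 196 with all arrays. Zfpm2 itself read 10.59, 10.55 and 10.52 log2 units in FOG-2 R3K5A hearts and 10.07, 10.13 and 10.14 in WT, a difference of 0.44 without overlap. Its other, dimmer probe set was also higher in every mutant array than in any WT array, by 0.58 on average. The allele changes amino acids, so these levels do not check the labels.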

How the data were processed

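The values are linear intensity readings of 6 arrays, 1 column each, as the authors deposited them. Target was made from 3 µg of total RNA, per the labels' protocols. How they were scaled is not given in the sources used here; detection calls were not used. Values were set to a floor of 1 and taken to log2. Of 45101 probe sets, 64 array controls were left out, and 34945 had 1 gene symbol in the platform annotation. The genotype difference was fitted in limma 3.58.1 under R 4.3.3 (lmFit, eBayes with an intensity trend, two-sided), with Benjamini-Hochberg adjustment over 11113 genes, or over 22518 probe sets, whose mean exceeded the median probe set mean (6.30 log2 units). The fit was tested on simulated data. Promoter sequences are RefSeq's, for 6 of 6 measured genes. Figures were drawn with matplotlib 3.10.9.

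The members, lists and tests were chosen with earlier results of these data known. All members were named. Of the other purine genes the called ones and the smallest p values per role were to be named, and of each marker list up to 3 called genes, or the smallest p. Others, such as Wt1, Tbx18, Tcf21, Bnc1, Aldh1a2 and Sftpc, were named after their values were seen. Alternatives covered normalization, offset, filter, probe sets, variance model, array weights, the replicate number and each array left out. Precision is limited by the number of arrays.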

Additional observations from a re-analysis of the deposited data

How the results depend on the processing

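Nt5e kept its call in the 14 alternatives fixed with the design, with adjusted p of 5.48e-05 to 0.00954 by limma and a difference of 0.80 (mean over its 3 probe sets) to 1.76. The count of adenosine genes called higher ran from 1 to 2 when single arrays were left out, the added gene being Adk without WT replicate 1, and was 0 without FOG-2 R3K5A replicates 1 and 3, where the lone mutant array is assumed to vary like the WT arrays. The count of their probe sets called higher was 3, but 1 with no filter on low values and 1 to 3 when single arrays were left out. Slc29a1, at 0.04 with all arrays, ran from -0.059 (without WT replicate 1) to 0.14 (without WT replicate 2). Of the other purine genes, 1 was called lower with median centring (Ampd3) and 2 with array quality weights (Ampd3 and Nt5c3), against 0 with all arrays and 0 to 1 with single arrays left out. The cause of these moves was not tested.

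The labels do not say whether same-numbered samples were handled together. Deviations of same-numbered samples from the genotype means correlated at -0.06, 0.13 and 0.41, and 2 of 6 samples correlated best with their own number. With 3 samples a genotype, these values cannot decide it. With the replicate number as a block the adenosine genes called higher stayed at 1, those called lower at 0, the other purine genes at 0 in both directions and the probe sets at 3, while all genes called numbered 234 against 196. The count over all genes was 37 to 451 when single arrays were left out, 119 without the intensity trend, 125 with the mean over probe sets, 81 with no filter and 429 with array quality weights. Dim probe sets limit what can be said of Ada, Entpd2 and Adora3.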
